A study of Mus musculus with 6 samples.

Results

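Ceramidases and the enzymes that make and remove sphingosine-1-phosphate (S1P) were followed as a set of 9 genes in the intestine of alk-SMase knockout (KO) and wild-type (WT) mice. The set holds the ceramidases Asah1, Acer2 and Acer3, the sphingosine kinases Sphk1 and Sphk2, the S1P lyase Sgpl1, the S1P phosphatases Sgpp1 and Sgpp2, and the receptor S1pr1. They were chosen by symbol for their place in the pathway. No measured value enters that rule, although earlier results of these data were known when it was written. A level could be read for 6 of the 9 genes, out of 12397 genes with a level in the 22700 rows of the table. Acer2, Acer3 and S1pr1 had no row that could be assigned to them.

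RNA was sequenced from the mucosa of the middle small intestine of C57BL/6 mice, with 1 library per mouse. The 3 KO mice (libraries K79S, K82S and K86S) lacked exon 2 of Enpp7, the gene of alkaline sphingomyelinase (alk-SMase), removed with Cre recombinase and loxP sites, and the 3 WT mice (W83S, W89S and W90S) carried the intact gene. The labels name no treatment, age or sex. Per-mouse values are listed below in the order K79S, K82S, K86S for KO and W83S, W89S, W90S for WT. The KO line came from another group. The promoter that drove Cre, whether the WT mice were littermates, and which KO mouse was matched to which WT mouse are not given in the sources used here.

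Ceramide is the backbone of sphingomyelin and other complex sphingolipids. Ceramidases cut it into sphingosine and a fatty acid, sphingosine kinases phosphorylate sphingosine to S1P, S1P phosphatases return S1P to sphingosine, and the lyase splits S1P irreversibly and so drains the whole sphingolipid pool. In the small intestine, dietary sphingomyelin is hydrolysed to ceramide by alk-SMase at the brush border, the ceramide is cut by neutral ceramidase, and the sphingosine is taken up by enterocytes. The loss of alk-SMase thus removes a source of the substrate for this pathway, and the comparison of KO with WT mice asks whether the mRNA of the downstream enzymes differed.

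Levels are FPKM, fragment numbers divided by transcript length and by the library's mapped reads, so they can be compared between genes. The table carries no read counts, and the depth behind a single value is unknown. In the table, gene identifiers stand beside the values of other genes, and every gene name used here rests on labels restored by rank. Among the restored genes with a single annotated transcript, 99.7% of 3649 had values of at most 6 decimals, the mark of a single transcript, against 5.80% of 8748 genes with several transcripts. With the labels as deposited these shares were 45.9% and 41.0%. In the 100 ranks on either side of each of the 6 genes, between 94.5% and 96.0% of the neighbours matched in this respect, and at most 64.0% did when the rows were moved by 1 rank either way. The ranks were themselves aligned on these decimals. A separate check used subunits of the same complex. The root mean square difference between Cd3e, Cd3d and Cd3g over the 6 libraries, after centring each gene, was 0.0979 on the log2(FPKM + 1) scale with restored labels and 0.260 as deposited, and for C1qa, C1qb and C1qc it was 0.0697 and 0.169.

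A pair of libraries stood apart. W83S held 38559 FPKM summed over 9 stomach and exocrine pancreas markers, against 1.08 to 8.52 FPKM in the other 5 libraries. Stomach genes carried this sum, foremost Tff1 (15727 FPKM in W83S), Pgc (15082 FPKM) and Gkn1 (6251 FPKM). The pancreas genes with a level, Amy2a5, Cela1 and Ctrb1, had only 20.1, 12.4 and 2.11 FPKM in W83S. K82S received the lowest weight, 0.302, when limma estimated the reliability of each library, against 0.968 to 1.93 for the others. Enterocyte markers were abundant throughout, with a sum over 12 genes of 28408 FPKM in K82S and 36394 to 43833 FPKM in the others. Enpp7 had 605, 129 and 669.7 FPKM across KO and 406, 667 and 495 FPKM across WT, and a value for the whole gene cannot show the loss of 1 exon.

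No difference between KO and WT was detected for any of the 6 genes. The 3 KO and the 3 WT libraries overlapped for every gene, and the adjusted p-values from limma lay between 0.68 and 0.999. Unadjusted, 0 of the 6 had p under 0.05 in the limma fit, where 12.5% of the 13089 tested rows did (2.87% higher and 9.64% lower in KO), and the two-sided exact permutation test, which cannot go below p = 0.1 with 3 against 3 mice, gave 0.4 to 1. Of all tested rows, 17.2% had no overlap between KO and WT. A single row, 0.00764% of those tested, passed an adjusted p under 0.05 with a fold above 1.5 or below 2/3, that of Gm29008, a gene outside the pathway. That call was lost without any 1 of the 5 libraries other than K82S, and without K82S 1184 rows passed, with none of the 6 genes among them.

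The first step is the release of sphingosine. Asah1, the lysosomal acid ceramidase, is located on chromosome 8 (41340197 to 41374773 in mm10, minus strand). Its level was 8.86, 23.4 and 8.67 FPKM across KO, and 12.1, 14.2 and 10.7 FPKM across WT. K82S was the highest of all libraries while the other 2 KO libraries were the lowest of all, so the KO values enclosed the WT values. KO averaged 13.7 ± 8.48 FPKM and WT 12.3 ± 1.80 FPKM (SD, n = 3 mice each). The KO to WT log2 fold change of FPKM + 1 was 0.0012, with a standard error of 0.37 and a 95% confidence interval from -0.89 to 0.89 (adjusted p = 0.999 from limma). Without K82S the log2 fold change was -0.44 (adjusted p = 0.144 from limma, unadjusted p = 0.0304), and the remaining KO libraries lay below all WT libraries. In that fit 21.6% of all rows had an unadjusted p under 0.05 and were lower in KO, and 32.3% had KO below WT throughout.

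Acer2, the alkaline ceramidase of the Golgi, and Acer3, an alkaline ceramidase that acts on ceramides with unsaturated acyl chains, ranked below the last gene that could be assigned, which had 0.954 FPKM in W83S. Their level in W83S was therefore at most 0.954 FPKM, and no value can be given for the other libraries. Acer2 is on chromosome 4 from 86874396 to 86934822 and Acer3 on chromosome 7 from 98206389 to 98321208.

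Among the other genes of this step, chosen for their function and not for how they moved, neutral ceramidase (Asah2), the brush border enzyme that follows alk-SMase in sphingomyelin digestion, was the most abundant. Asah2 had 203, 78.5 and 267 FPKM across KO and 177, 111 and 189 FPKM across WT. It exceeded Asah1 in each library, from 3.35 times in K82S to 30.8 times in K86S. Within KO this ratio spanned a wider range than in WT, where it was 7.82 to 17.7, and the groups overlapped (exact permutation test on the log2 ratio, p = 1). Psap, the precursor of the saposins that assist lysosomal sphingolipid hydrolysis, was even across the mice at 132 to 151 FPKM (log2 fold change -0.0045, 95% confidence interval -0.37 to 0.36). Degs2, which makes phytoceramides, had 43.4 to 74.2 FPKM in KO and 45.2 to 72.3 FPKM in WT. Of the 8 genes in this list, 6 were higher and 2 lower in KO, and 0 passed the test. Of all tested rows, 42.3% were higher in KO.

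**Figure D1:**
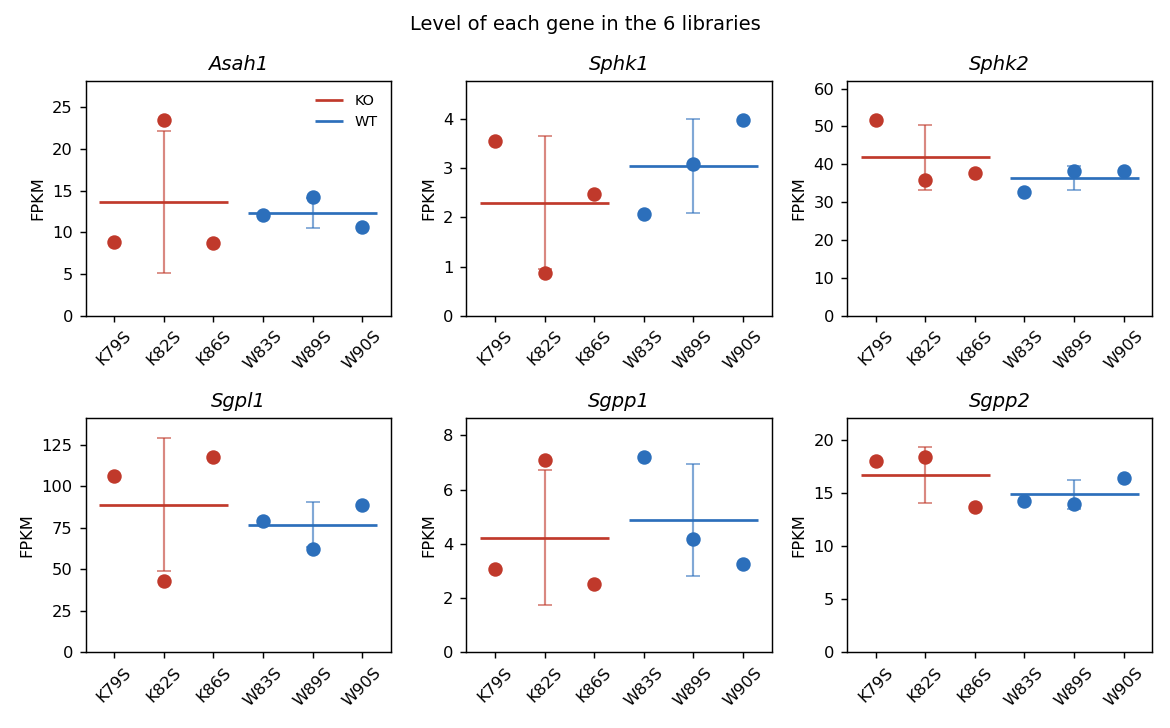
FPKM (vertical axes, linear from 0) of the 6 genes in each library, with KO libraries in red and WT libraries in blue. Horizontal lines are group means and vertical bars the SD of 3 libraries. K82S is highest for Asah1 and Sgpp2 and lowest for Sphk1 and Sgpl1, and the KO and WT points overlap in every panel.

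The kinases make S1P from sphingosine. Sphk1, on chromosome 11 (116530925 to 116536674, plus strand), encodes the mainly cytosolic kinase that moves to the plasma membrane on stimulation. It was the least abundant of the 6 genes, with 3.56, 0.869 and 2.47 FPKM across KO and 2.06, 3.08 and 3.98 FPKM across WT. K82S alone was below 1 FPKM, and the other KO libraries fell within the WT range. KO averaged 2.30 ± 1.35 FPKM and WT 3.04 ± 0.958 FPKM (SD, n = 3 mice each), and the log2 fold change was -0.36 (standard error 0.35, 95% confidence interval -1.20 to 0.49, adjusted p = 0.68 from limma). Without K82S it was 0.0063.

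Sphk2, the kinase found in the nucleus and other inner compartments, is on chromosome 7 (45709467 to 45718002, minus strand). It had 51.7, 35.9 and 37.8 FPKM across KO and 32.7, 38.1 and 38.1 FPKM across WT. K79S was the highest library and W83S the lowest, and the remaining 4 lay between 35.9 and 38.1 FPKM. KO averaged 41.8 ± 8.58 FPKM and WT 36.3 ± 3.16 FPKM (SD, n = 3 mice each). The log2 fold change was 0.18 (standard error 0.19, 95% confidence interval -0.27 to 0.63, adjusted p = 0.692 from limma). Sphk2 was the more abundant kinase in each library, by 9.59 to 15.8 times in WT, by 14.5 and 15.3 times in K79S and K86S and by 41.3 times in K82S. The exonic sequence of Sphk2 overlaps that of Dbp and of Rpl18 on the opposite strand, over 13.0% and 8.97% of its 4159 exonic bases. The strand used in counting is not given in the sources used here, so part of the Sphk2 level may stem from these neighbours. Dbp, a transcription factor of the circadian clock, had 12.6 FPKM in K82S and 25.5 to 54.8 FPKM in the other libraries, and Rpl18 had 34.2 to 71.7 FPKM.

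S1P is degraded by the lyase, which was the most abundant of the 6 genes. Sgpl1, on chromosome 10 (61098642 to 61147703, minus strand), had 106, 43.2 and 118 FPKM across KO and 78.95, 62.4 and 88.99 FPKM across WT. K79S and K86S were above and K82S below all WT libraries, the mirror image of Asah1. KO averaged 88.9 ± 40.0 FPKM and WT 76.8 ± 13.4 FPKM (SD, n = 3 mice each). The log2 fold change was 0.099 (standard error 0.39, 95% confidence interval -0.84 to 1.04, adjusted p = 0.931 from limma). Without K82S it was 0.55 (adjusted p = 0.154 from limma, unadjusted p = 0.0336). In that fit 4.10% of all rows had an unadjusted p under 0.05 and were higher in KO, and 11.9% had KO above WT throughout.

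The S1P phosphatases of the endoplasmic reticulum return S1P to sphingosine. Sgpp2, on chromosome 1 (78310345 to 78420289, plus strand), was the steadiest of the 6 genes, with 18.0, 18.4 and 13.7 FPKM across KO and 14.2, 14.0 and 16.4 FPKM across WT. The highest library was 1.34 times the lowest, and the groups overlapped. KO averaged 16.7 ± 2.60 FPKM and WT 14.8 ± 1.35 FPKM (SD, n = 3 mice each). Its log2 fold change was 0.15, with the narrowest interval of the 6, from -0.24 to 0.54 (standard error 0.16, adjusted p = 0.709 from limma). As a fold this interval runs from 0.846 to 1.46, within the limits of 2/3 and 1.5 used for a call. That held for the main fit but not for every alternative. The upper bound on the log2 scale was 0.60 with quantile normalization and 0.71 without W90S, both above 1.5-fold. The last exons of Sgpp2 and Farsb overlap on opposite strands over 248 bases, 6.20% of the exonic bases of Sgpp2. Farsb had 4.21 to 9.63 FPKM in KO and 12.7 to 15.4 FPKM in WT (adjusted p = 0.393 from limma). KO lay below WT throughout in 11.3% of all tested rows. The part of Farsb in the Sgpp2 level was not tested.

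Sgpp1, on chromosome 12 (75714249 to 75735729, minus strand), had 3.09, 7.10 and 2.52 FPKM across KO and 7.21, 4.17 and 3.26 FPKM across WT. K82S and W83S, the pair of libraries that stood apart, were the highest, and the other 4 lay between 2.52 and 4.17 FPKM. KO averaged 4.24 ± 2.50 FPKM and WT 4.88 ± 2.07 FPKM (SD, n = 3 mice each). The log2 fold change was -0.21 (standard error 0.38, 95% confidence interval -1.11 to 0.69, adjusted p = 0.834 from limma). It was -0.58 without K82S and 0.058 without W83S. Sgpp2 exceeded Sgpp1 in each library, by 2.59 to 5.83 times in KO and 1.97 to 5.03 times in WT.

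The intervals show what these mice could resolve. For Asah1, Sphk1, Sgpl1 and Sgpp1 the standard errors were 0.35 to 0.39 on the log2 scale, where the median over all tested rows was 0.196. More than 87% of rows had a smaller standard error than each of these 4 genes, as against 45.8% for Sphk2 and 30.7% for Sgpp2. A change of 1.5-fold in either direction thus lay inside the intervals of Asah1, Sgpl1 and Sgpp1. For Sphk2 only the increase did, with an interval from 0.832 to 1.55-fold. For Sphk1 only the decrease did, since the upper bound of its interval was 1.40-fold of FPKM + 1. The added constant of 1 is large beside the level of Sphk1. With constants of 0.1 and 0.01 its upper bound was 0.69 and 0.72 on the log2 scale, so a 1.5-fold increase lay inside as well.

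**Figure D2:**
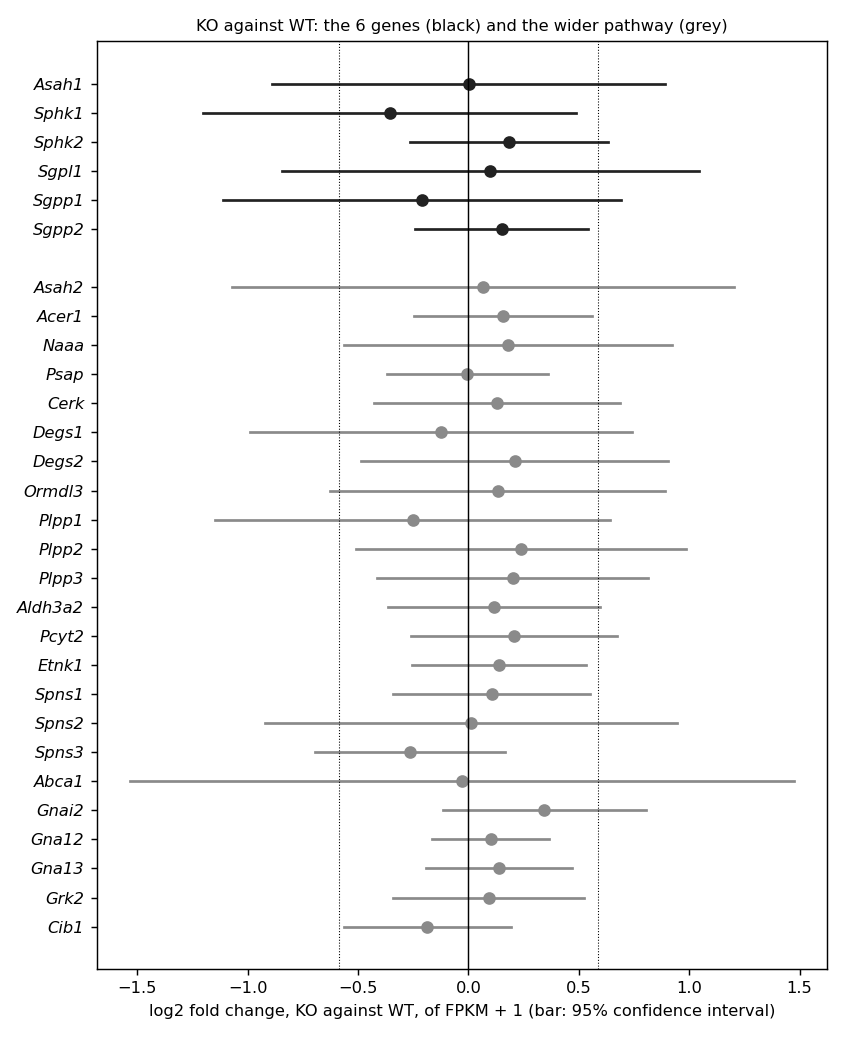
log2 fold change of FPKM + 1, KO against WT, (horizontal axis) for the 6 genes in black and 23 further pathway genes in grey, with bars for the 95% confidence interval from limma. Dotted lines mark a fold of 1.5 in either direction. Each interval includes 0, and those of Asah1, Sphk1, Sgpl1 and Sgpp1 are wider than those of Sphk2 and Sgpp2.

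Ordered by mean level, the genes ran from Sgpl1 (82.8 FPKM) through Sphk2 (39.1 FPKM), Sgpp2 (15.8 FPKM), Asah1 (13.0 FPKM) and Sgpp1 (4.56 FPKM) to Sphk1 (2.67 FPKM). Sgpl1 was higher than Sphk2 in 6 of 6 libraries, by 2.03 times on average. Sphk2 was higher than Sgpp2 in 6 of 6, by 2.47 times, and Asah1 higher than Sgpp1 in 6 of 6, by 2.91 times. Sgpp2 was higher than Asah1, and Sgpp1 higher than Sphk1, in 4 of 6 libraries each, so the order within these 2 pairs changed between mice. The neighbours were taken from the means of the same 6 libraries, and the order is a description with no test.

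S1pr1, the G protein-coupled receptor through which S1P guides lymphocytes out of lymphoid tissue and tightens the endothelial barrier, also ranked below the last assigned gene, at no more than 0.954 FPKM in W83S. It is on chromosome 3 from 115710433 to 115715072. Markers of endothelial cells and of T cells, both known for S1pr1, had the following levels. Of 12 endothelial markers, 2 had a level, Esam and Eng, with a summed 1.15 to 4.02 FPKM in KO and 0.734 to 2.03 FPKM in WT. The other 10 ranked below the last assigned gene. Of 12 T cell markers, 7 had a level, and the others also ranked below the last assigned gene. The 7 summed to 57.0, 83.6 and 49.0 FPKM across KO and to 41.5, 30.3 and 33.1 FPKM across WT. Of these 7, 6 lay higher in all KO than in all WT libraries, where 5.9% of all tested rows did, and 0 passed the adjusted threshold. Their part in the levels of the 6 genes was not tested. In bulk tissue, fewer cells of a type and less RNA per cell cannot be told apart.

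In the wider pathway, too, no gene passed the test. Of the 31 further genes, 23 had a level, all 23 were tested, and 0 passed the threshold. In this list 0 had an unadjusted p under 0.05 from limma, where 12.5% of all tested rows did. In KO 17 were higher and 6 lower, where 42.3% of all tested rows were higher. The median log2 fold change was 0.11 over these 23 genes and 0.05 over the 6 genes, beside -0.061 over all 13089 tested rows. In 1 of the 23 genes, Gna12, KO lay above WT in all libraries, at 5.51 to 6.05 FPKM against 5.13 to 5.38 FPKM, where 5.9% of all tested rows had KO above WT.

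Among the genes that clear S1P and its products, Plpp2, a lipid phosphate phosphatase of the cell surface, had 111 to 154 FPKM in KO and 72.4 to 155 FPKM in WT. Pcyt2, which uses the phosphoethanolamine route that the lyase product enters, had 62.9 to 94.2 FPKM in KO and 60.0 to 69.2 FPKM in WT. Plpp1, a further lipid phosphate phosphatase, had 29.7 to 77.3 FPKM in KO and 47.8 to 78.4 FPKM in WT. Among the transporters, Spns2, the exporter of S1P, had 21.5, 7.95 and 21.8 FPKM across KO and 14.7, 12.7 and 19.7 FPKM across WT. Spns1, a lysosomal relative of Spns2, had 13.9 to 20.1 FPKM in KO and 12.9 to 17.2 FPKM in WT. Abca1, the cholesterol and phospholipid exporter, ranged most widely, from 1.71 FPKM in K82S to 13.0 FPKM in K86S. Downstream of the receptors, the G protein subunits Gnai2 and Gna13 and the kinase partner Cib1 had log2 fold changes of 0.34, 0.14 and -0.19, and none of these passed the test. The receptors S1pr2, S1pr3, S1pr4 and S1pr5 ranked below the last assigned gene, and Klf2 had a tied rank and no value.

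The variation between mice had a shape of its own. From low to high, Sgpl1 ran K82S, W89S, W83S, W90S, K79S and K86S. Of the 78 other tested genes of the pathway and marker lists, the other 5 genes described above included, 5 had exactly this order of libraries, namely Asah2, Ormdl3, Spns2, Abca1 and Lct, or 6.41%, where 0.611% of all other tested rows had it. Ormdl3 restrains serine palmitoyltransferase at the start of sphingolipid synthesis, and Lct encodes lactase, a brush border enzyme of the upper small intestine. Asah1 had exactly the reverse order, as did 0.42% of rows. The order was looked for after the values of these genes had been seen, and the counts are a description of 6 libraries.

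By the root mean square difference of centred log2(FPKM + 1) over the 6 libraries, Spns2 (0.0879) and Ormdl3 (0.123) were the genes of the lists most like Sgpl1, where the median of the 78 genes was 0.51. For Asah1 they were Cd14 (0.113), a receptor of myeloid cells, and Trac (0.261), a T cell receptor chain. For Sphk1 they were Spns2 (0.293) and Naaa (0.296), and for Sphk2 Pcyt2 (0.0516) and Spns1 (0.0900). For Sgpp1 they were Asah1 (0.314) and Cd14 (0.34), and for Sgpp2 Spns1 (0.141) and Cdh1 (0.149). The nearest neighbours of Sphk2, Sgpl1 and Asah1 lay closest, and those of Sphk1 and Sgpp1 farthest.

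**Figure D3:**
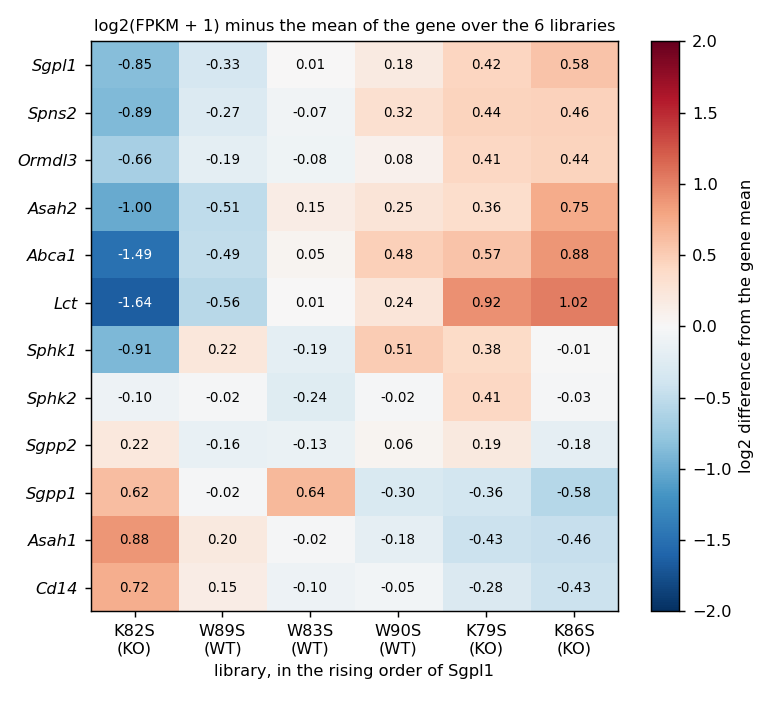
log2(FPKM + 1) of each gene minus its mean over the 6 libraries (colour and number), with libraries in the rising order of Sgpl1. Sgpl1, Spns2, Ormdl3, Asah2, Abca1 and Lct rise from K82S on the left to K86S on the right, Asah1 falls, and Sphk2 and Sgpp2 vary least of the 6 genes.

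Markers of gut region and of immune cells also varied between libraries. None of the genes in these lists had exactly the order of Sgpl1 or its reverse. Slc2a2, the basolateral glucose transporter of the proximal small intestine, was lowest in K82S at 23.5 FPKM, followed by W89S at 57.4 FPKM, with 85.0 to 139 FPKM in the other libraries. Slc51b, a subunit of the bile acid exporter that is highest in the ileum, was highest in K82S at 715 FPKM, followed by W89S at 404 FPKM, where the others had 121 to 216 FPKM. As whole lists the region markers were less clear. The 8 proximal markers summed to 708 and 678 FPKM in K82S and W89S and to 732 to 1420 FPKM in the other libraries, and the 6 distal markers with a level summed to 1845 to 2280 FPKM in KO and 1348 to 1602 FPKM in WT. The B cell markers Cd79a and Cd79b, 2 of 8 with a level, summed to 61.3 FPKM in K82S, 23.2 to 42.7 FPKM in the WT libraries W89S and W90S, and 4.59 to 6.53 FPKM in K79S, K86S and W83S. Of 10 macrophage and dendritic cell markers, 8 had a level, with sums of 205, 248 and 181 FPKM in K82S, W89S and W90S and 67.5 to 103 FPKM in the other 3. Lyz2 carried this split, and without it the sums were 50.0, 83.2 and 75.8 FPKM across KO and 50.4, 63.8 and 57.9 FPKM across WT, with K86S above W89S and W90S. The 3 smooth muscle markers with a level summed to 13.4 to 29.1 FPKM in KO and 10.6 to 33.6 FPKM in WT. The part of these cell types and of gut position in the levels of Sgpl1 and Asah1 was not tested.

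For 4 of the 6 genes K82S was the lowest or the highest library. It was the lowest library for 2 of the 6 genes and for 10 of the 23 further pathway genes, where it was the lowest for 13.1% of all tested rows. It was the highest library for another 2 of the 6 genes and for 3 of the 23, beside 22.1% of all rows. K82S was also set against the mean of the other 5 libraries on the log2(FPKM + 1) scale. It differed by 1.06 for Asah1, -1.09 for Sphk1, -1.02 for Sgpl1 and 0.26 for Sgpp2. For Sgpp1 and Sphk2, where K82S was neither lowest nor highest, it differed by 0.75 and -0.12. A difference beyond 0.8 in either direction was seen in 8.32% of rows.

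**Figure D4:**
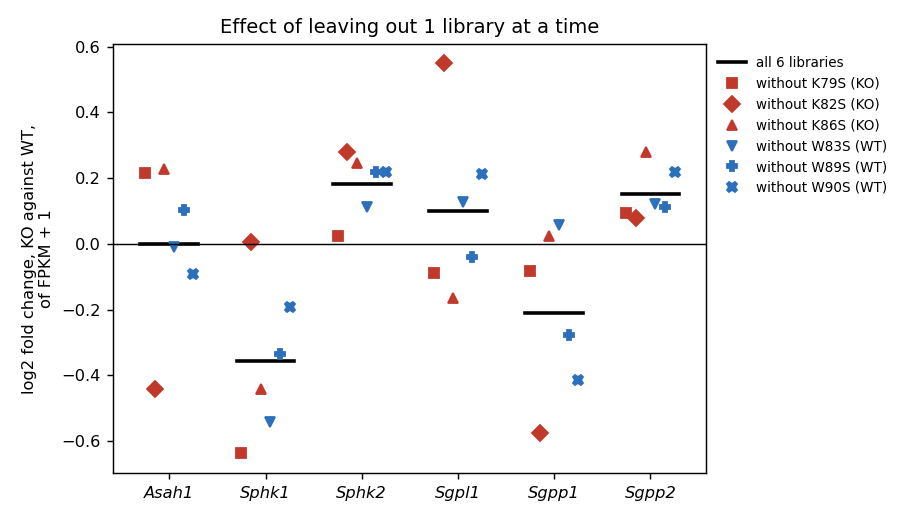
log2 fold change of FPKM + 1, KO against WT, (vertical axis) with all 6 libraries (black bars) and with each library left out in turn (symbols, KO red and WT blue). Leaving out K82S moves Asah1 to -0.44, Sphk1 to 0.0063, Sgpl1 to 0.55 and Sgpp1 to -0.58, while Sphk2 and Sgpp2 stay between 0.025 and 0.28.

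Sgpl1, Spns2 and Asah2 shared an order of libraries with Ormdl3, Abca1 and Lct, whose promoters are not shown. For Sgpl1, Spns2 and Asah2, the stretch from 250 to 31 bases before the RefSeq transcription start is given below. Each stretch (GRCm38.p6, minus strand) has 220 bases, 0 of them in an annotated exon. Sgpl1 is at chr10:61147715-61147934, Spns2 at chr11:72475058-72475277 and Asah2 at chr19:32103171-32103390. Capitals mark GGGCGG or its complement CCGCCC, the GC box bound by Sp1, and CAAAGGTCA or its complement TGACCTTTG, letters of the sites bound by nuclear receptors such as HNF4A. These letters were chosen after the stretches had been read.
Sgpl1: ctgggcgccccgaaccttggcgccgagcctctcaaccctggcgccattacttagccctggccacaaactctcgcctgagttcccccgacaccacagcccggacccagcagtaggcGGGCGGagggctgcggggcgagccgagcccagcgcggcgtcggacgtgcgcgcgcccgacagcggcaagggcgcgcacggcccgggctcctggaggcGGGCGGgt
Spns2: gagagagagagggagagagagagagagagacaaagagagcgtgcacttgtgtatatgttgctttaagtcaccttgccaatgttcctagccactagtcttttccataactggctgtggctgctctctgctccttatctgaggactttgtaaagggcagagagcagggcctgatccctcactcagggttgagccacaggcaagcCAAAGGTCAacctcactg
Asah2: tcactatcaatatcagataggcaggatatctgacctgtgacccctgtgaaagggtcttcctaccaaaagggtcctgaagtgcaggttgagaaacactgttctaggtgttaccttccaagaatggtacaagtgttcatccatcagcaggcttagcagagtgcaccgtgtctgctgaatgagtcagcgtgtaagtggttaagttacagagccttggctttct

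The stretches shown differed in these letters and in base content. Sgpl1 held GGGCGG at 135 and at 38 bases before the start and was 75.0% G or C, as against 50.9% for Spns2, 46.8% for Asah2 and a median of 51.8% over 32851 promoters. Of all promoters, 28.5% held the GC box on either strand in the same window. Spns2 held CAAAGGTCA at 48 bases before the start, which 0.384% of promoters held on either strand. Neither set of letters was found in Asah2, and a match in letters does not show that a factor is bound.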

How the data were processed

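The authors mapped 50 bp single-end reads to mm10 with HISAT2 and quantified genes with StringTie, and deposited FPKM values, 1 per gene and library. Versions, annotation and strand handling are not given in the sources used here, nor whether the edgeR normalization that the paper names was applied to the table. The number of columns that could not be mapped was 0. Samples were grouped by the genotype in the labels.

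Gene identifiers were ranked by the K79S value beside them and rows by W83S, and each identifier was moved to the row of its rank plus an offset given for each range of ranks. Of 22700 identifiers, 22680 had a symbol in GENCODE M21, and 12397 rows received a gene. The rest were not used here.

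The filter kept the 13089 rows that reached an FPKM of 1 in at least 2 libraries. Their log2(FPKM + 1) values entered a linear model in limma 3.58.1 (R 4.3.3, mean-variance trend, no covariate, Benjamini-Hochberg adjustment over all tested rows), since a count model does not apply to FPKM. The fitting script was tested on simulated data. Exact permutation tests, ratios and figures used Python 3.11.15 with scipy 1.17.1. Precision rests on 3 mice per genotype. The paper gives the mapped reads of each library, but the reads behind a single gene value are unknown.

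The members and lists were chosen with earlier results of these data known. Genes named beside the members were the 3 most abundant of each pathway list, genes past the threshold, the most abundant markers, and the 2 genes of the lists most like each member. Gna12, Dbp, Rpl18, Farsb, Lct, Amy2a5, Cela1 and Ctrb1 were named after their values had been seen. Promoter sequences are from RefSeq (GRCm38.p6). The lists of stomach, region, immune, muscle, endothelial and enterocyte markers are given by their sums. Alternatives changed the added constant, the filter, the scaling, the weights, the variance trend and the libraries used.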

Additional observations from a re-analysis of the deposited data

How the results depend on the processing

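None of the 6 genes and none of the 23 further pathway genes passed the threshold under the 17 alternatives tried, with lowest adjusted p-values from limma of 0.144 for Asah1 and 0.154 for Sgpl1, both without K82S. Sphk2 and Sgpp2 kept their sign throughout. Asah1, near 0 with all libraries, turned to -0.0076 and -0.0087 with constants of 0.1 and 0.01, to -0.24 with array weights and to -0.45 without both K82S and W83S, a setting chosen after seeing the data. With 1 library left out at a time, the log2 fold changes ran from -0.44 to 0.23 for Asah1, -0.64 to 0.0063 for Sphk1, -0.16 to 0.55 for Sgpl1 and -0.58 to 0.058 for Sgpp1. The number of calls over all rows changed most without K82S. Against 1 row past the threshold (0 higher, 1 lower in KO), there were 0 with either smaller constant, 2 with array weights (1 of them higher), and 1111 without both libraries (42 higher, 1069 lower). Leaving out 1 library gave 0 to 1184 rows, with 0 to 51 higher and 0 to 1133 lower, the upper counts all without K82S. Rows with an unadjusted p under 0.05 numbered 1638, 3334 with array weights, 2986 without both libraries and 671 to 3284 with 1 library left out. Rows without overlap between KO and WT numbered 2255, 6603 without both libraries and 2921 to 5646 with 1 left out, where fewer samples make overlap rarer. Other causes were not tested. No paired analysis was possible because the labels carry no replicate numbers shared by KO and WT. FPKM keeps no read counts, so low levels such as that of Sphk1 have an unknown counting error.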
